A study of Mus musculus with 8 samples.

Results

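The Slc2a genes encode the facilitative sugar transporters of the GLUT family. The genes described are Slc2a1, Slc2a2, Slc2a3, Slc2a4, Slc2a5, Slc2a8, Slc2a9 and Slc2a12, chosen by symbol from a table of RNA levels, which makes 8 of the 27179 genes in it and 8 of its 12 Slc2a genes. The study sequenced total RNA of 4 mouse organs (brain, heart, kidney, liver) to compare 2 ways of keeping tissue. Tissue was either flash frozen or put through 10% formalin and then paraffin (formalin-fixed, paraffin-embedded, FFPE), like archived pathology blocks. Each organ gave 1 frozen and 1 FFPE library, 8 in all, with no genotype, strain, age or drug treatment named in the labels. The labels also do not say how many mice were used, whether tissue was pooled or whether both libraries of an organ came from the same animal, so p-values measure only the spread between these libraries.

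GLUT proteins let sugars cross a membrane down their concentration gradient, through a pore built by a bundle of membrane-spanning helices. They fall into 3 classes by sequence, and each organ is known for its own set: GLUT1 at the blood-brain barrier and GLUT3 in neurons, insulin-responsive GLUT4 in heart muscle, and low-affinity GLUT2 in hepatocytes and in the basolateral membrane of the kidney tubule. Slc2a5 encodes the fructose transporter GLUT5 and Slc2a9 the urate transporter GLUT9, while GLUT8 (Slc2a8) sits mostly on membranes inside the cell and GLUT12 (Slc2a12) belongs to the same class as GLUT8.

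The stretch of helix 7 that lines the pore shows how members differ in the protein they encode, and is given for 7 of them. It is printed because class I transporters that exclude fructose are known to carry a glutamine-leucine-serine trio there. Each line gives 39 coding bases (13 codons, 5′ to 3′ along the mRNA), read from GENCODE M21 transcripts. The capitals mark the 3 codons at the place of that trio.
Slc2a3: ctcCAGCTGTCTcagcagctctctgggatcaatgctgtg
Slc2a4: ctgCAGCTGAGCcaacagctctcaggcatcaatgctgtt
Slc2a2: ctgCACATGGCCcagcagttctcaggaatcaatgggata
Slc2a5: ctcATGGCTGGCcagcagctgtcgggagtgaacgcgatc
Slc2a9: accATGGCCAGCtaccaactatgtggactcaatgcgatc
Slc2a8: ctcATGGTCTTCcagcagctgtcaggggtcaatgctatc
Slc2a12: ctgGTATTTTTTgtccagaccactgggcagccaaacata
The codons of Slc2a3 and Slc2a4 read as the same trio. Slc2a2, also of class I, reads differently there, as do Slc2a5 and Slc2a9 of class II and Slc2a8 and Slc2a12 of class III. The 13 residues encoded were identical in Slc2a3 and Slc2a4, while Slc2a12 shared 3 of them with Slc2a3. Over the whole protein, identity ran from 25.7% (Slc2a9 with Slc2a12) to 66.8% (Slc2a1 with Slc2a3).

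In the GRCm38 build these stretches lie on the forward strand at chr3:28719472-28721705 for Slc2a2 (exons 7 and 8). Those of Slc2a5 (exons 9 and 10, chr4:150139783-150139932) and Slc2a12 (exon 2, chr10:22665112-22665150) are on the forward strand as well. On the reverse strand lie those of Slc2a3 (exons 6 and 7, chr6:122732872-122735458), Slc2a4 (exons 7 and 8, chr11:69945104-69945304), Slc2a8 (exon 6, chr2:32976179-32976217) and Slc2a9 (exons 7 and 8, chr5:38391822-38398737). Where 2 exons are named the interval includes the intron between them.

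The bases upstream of the start differ as well, and those of Slc2a1, which was read in all 8 libraries, and of Slc2a2, nearly all of whose reads came from liver and kidney, are shown as an example. RefSeq promoters (GRCm38.p6) matched 6 of the 8 members by symbol. Both are on the forward strand, Slc2a1 at chr4:119108495-119108710 (216 bases that end before the first annotated exon) and Slc2a2 at chr3:28697653-28697902 (250 bases). Capitals mark CG dinucleotides.
Slc2a1 upstream: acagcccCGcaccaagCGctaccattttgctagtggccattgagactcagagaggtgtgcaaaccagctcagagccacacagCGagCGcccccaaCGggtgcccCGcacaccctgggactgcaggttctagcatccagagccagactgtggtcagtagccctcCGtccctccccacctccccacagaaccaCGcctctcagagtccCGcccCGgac
Slc2a2 upstream: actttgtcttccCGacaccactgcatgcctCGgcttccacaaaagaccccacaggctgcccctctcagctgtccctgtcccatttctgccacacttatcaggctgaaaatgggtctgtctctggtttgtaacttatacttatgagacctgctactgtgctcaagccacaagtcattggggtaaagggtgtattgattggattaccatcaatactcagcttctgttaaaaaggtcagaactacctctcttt
The printed stretches hold 10 CG dinucleotides for Slc2a1 and 2 for Slc2a2. Counted over the 250 bases before the RefSeq start, there were 13 in Slc2a1, 2 in Slc2a2, 15 in Slc2a5, 7 in Slc2a8, 1 in Slc2a9 and 5 in Slc2a12, beside a median of 6 over 32851 such windows. The Slc2a9 window (chr5:38483386-38483635) lies inside the gene as GENCODE places it, so its count is not that of the bases upstream of the gene. The counts did not sort the members by organ range: Slc2a5, the gene with the most CG, was above 2 CPM in kidney alone.

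Reads assigned to genes numbered 10180972 to 20526813 per library, and 1212 (frozen heart) to 2831 (FFPE liver) of them fell on the members, which is 0.00590 to 0.0181% of reads. Levels are given in CPM (counts per 1000000 reads of the scaled library size). The floor of 3 reads, used where a gene had none, ranged from 0.119 CPM (frozen brain) to 0.292 CPM (frozen heart). The organ labels held against their markers: 6 neuron markers summed to 1299 and 1604 CPM in the brain libraries, 6 cardiomyocyte markers to 27118 and 23858 in heart, 7 proximal tubule markers to 10758 and 7363 in kidney and 7 hepatocyte markers to 52914 and 45666 in liver, with none of them at 0 in its own organ. The brain libraries did not hold the same regions in the same shares, since the cerebellar neuron genes Gabra6 and Pcp2 had 742 and 98 reads in the FFPE library and 0 in the frozen one (a pair picked with those values known). Outside brain they had 16 and 2 reads in FFPE heart, 1 and 1 in FFPE kidney and 0 in the other 4 libraries. FFPE kidney held 464 reads of 6 adipocyte markers where frozen kidney held 11.

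All 8 members differed between organs, and each had its highest level in the same organ in frozen and in FFPE tissue. All passed the level filter (above 1 CPM in at least 2 libraries) and all 8 were called by limma's moderated F test over the organs, at Benjamini-Hochberg adjusted p between 1.70e-06 (Slc2a4) and 0.00871 (Slc2a8). Of the 15819 genes tested 80.9% were called, so the call itself is common here. The same organ was highest in frozen and in FFPE libraries for 8 of 8 members and for 80.5% of all genes, and the whole order of the organs was the same for 5 of 8 and for 41.7%. Both libraries of the highest organ lay above the other 6 libraries for 7 of 8 members, the exception being Slc2a8, and for 67.7% of genes. The members' median distance from highest to lowest organ mean was 6.50 log2 units, against 2.32 over all genes tested, with Slc2a8 (1.42) below that value and Slc2a1 (2.51) near it. Because these are whole organs, fewer cells of a type and less RNA per cell cannot be told apart.

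**Figure D1:**
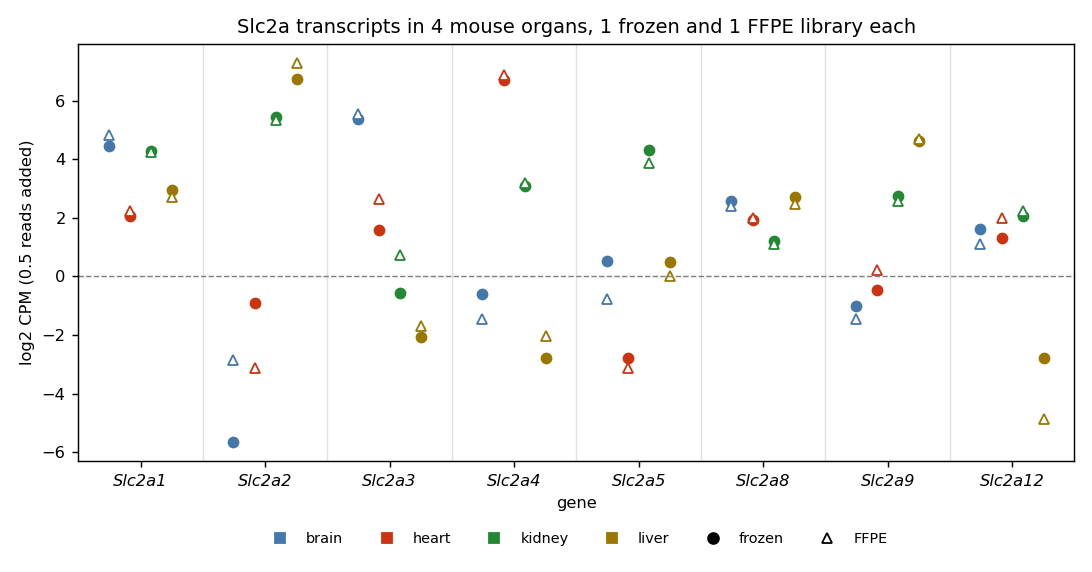
Log2 CPM of each Slc2a member (y axis, 0.5 reads added to each count) in the 8 libraries, 1 point each, with organs by colour, filled circles for frozen and open triangles for FFPE; the dashed line marks 1 CPM. Slc2a4 stands highest in heart, Slc2a3 in brain, Slc2a5 in kidney and Slc2a2 and Slc2a9 in liver in both preparations, while Slc2a8 covers 1.42 log2 units over the organ means.

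Slc2a1 and Slc2a3 had their highest levels in brain and were called over the organs, and 29.9% of all genes tested were called and highest there. Slc2a1 (Entrez 20525, chr4:119108711-119137983, forward strand), the GLUT1 gene of barrier endothelium and of many other cells, stood at 22.1 and 28.4 CPM in frozen and FFPE brain, 19.5 and 19.0 in kidney, 7.58 and 6.48 in liver and 4.09 and 4.63 in heart. Every library thus held it, brain and kidney at similar height and heart lowest. Brain exceeded heart 5.71-fold (log2 difference 2.51 ± 0.23 SE; limma adjusted p = 3.71e-05) and kidney exceeded liver 2.74-fold (1.45 ± 0.23; 0.00105). Brain and kidney did not differ beyond the spread (0.38 ± 0.23; limma adjusted p = 0.189), except on total reads without scaling factors (0.89, 0.0274). The step from liver to heart (0.68 ± 0.23; limma adjusted p = 0.0327) was lost under 8 of 17 alternatives, among them without either heart library, either kidney library or the frozen liver library (limma adjusted p 0.0543 to 0.252). An antisense gene, Gm12868, shares 105 of the 3506 exon bases of Slc2a1, and the sources used here do not state whether counting used strand.

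Slc2a3 (Entrez 20527, chr6:122727809-122801640, reverse strand), the high-affinity GLUT3 gene of neurons, was at 41.7 and 47.1 CPM in frozen and FFPE brain, 2.92 and 6.14 in heart, 0.644 and 1.63 in kidney and 0.192 and 0.276 in liver. It fell in steps from brain to liver without overlap between organs. Brain lay 10.3-fold above heart (log2 difference 3.37 ± 0.43 SE; limma adjusted p = 0.000219), heart 4.06-fold above kidney (2.02 ± 0.43; 0.00543) and kidney 3.87-fold above liver (1.95 ± 0.43; 0.00640). The liver values rest on 2 and 4 reads. The lower steps were less secure: heart over kidney lost its call without the frozen kidney library (1.64, limma adjusted p = 0.0603) and without scaling factors (1.21, 0.0747), and kidney over liver without the FFPE kidney library (1.57, limma adjusted p = 0.0750) and under quantile normalization (0.68, 0.228).

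Slc2a4 was highest in heart, the organ in which 16.4% of all genes tested were called and highest. This GLUT4 gene (Entrez 20528, chr11:69942539-69948188, reverse strand) encodes the transporter that insulin brings to the surface of muscle and fat cells. It stood at 103.7 and 117.6 CPM in frozen and FFPE heart, 8.54 and 9.15 in kidney, 0.634 and 0.335 in brain and 0.0960 and 0.207 in liver. Heart held it in 1064 and 1551 reads and kidney in 146 and 202, brain in 16 and 6 reads and liver in 1 and 3. Heart exceeded kidney 12.5-fold (log2 difference 3.64 ± 0.44 SE; limma adjusted p = 0.000272) and kidney exceeded brain 18.2-fold (4.19 ± 0.44; 7.71e-05). Counted within each preparation, the ratio of heart to kidney was 12.1 in frozen tissue (95% exact interval 10.2 to 14.5, counting error only) and 12.8 in FFPE tissue (11.1 to 15.0). The step from brain to liver (1.39 ± 0.44; limma adjusted p = 0.0222) rests on those few reads. It was lost under 5 of 17 alternatives, among them without frozen brain (0.79, limma adjusted p = 0.167) or frozen liver (0.92, 0.142) and turned under quantile normalization, where liver lay 1.03 above brain (0.105).

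Cells other than cardiomyocytes and tubule cells also express Slc2a4, and their markers were read beside it. The 6 adipocyte markers summed to 0.644 CPM in frozen kidney, with Plin1, Lep and Retn at 0, and to 21.03 CPM in FFPE kidney, with none at 0, while Slc2a4 was 8.54 and 9.15 CPM in the same libraries. In heart the adipocyte sum was 0.0975 CPM in the frozen library, where 5 of 6 markers were at 0, and 1.36 CPM in the FFPE library, with Plin1 and Retn at 0. The 6 skeletal muscle markers summed to 40.2 CPM in frozen heart and 123.8 in FFPE heart, of which Acta1, which heart muscle also expresses, gave most, and Slc2a4 was 1.13 times as high in FFPE heart as in frozen heart (1.05 to 1.23).

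Slc2a2, Slc2a9 and Slc2a8 had their highest means in liver, where 22% of all genes tested were called and highest. Slc2a2 (Entrez 20526, chr3:28697903-28731359, forward strand), the GLUT2 gene through which hepatocytes take up and release glucose, stood at 106.7 and 156 CPM in frozen and FFPE liver and at 42.9 and 40.3 CPM in kidney. Brain gave 0 and 2 reads and heart 5 and 1 reads. Liver and kidney therefore held the gene in both preparations, and brain and heart only at the level of single reads. Within frozen tissue liver was at least 897-fold higher than brain when brain is set at the floor of 3 reads, and at least 728-fold by the lower limit of the exact counting interval. Within FFPE tissue the ratio was 1397, with a counting interval of 386 to 11545. Kidney exceeded heart by 7.40 ± 0.95 log2 units (limma adjusted p = 0.000355), a fitted value that depends on the 0.5 reads added.

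Liver lay above kidney for Slc2a2 in both preparations, 2.49-fold in frozen tissue (2.26 to 2.73, counting error only) and 3.87-fold in FFPE tissue (3.58 to 4.19). The fitted difference of 1.63 ± 0.95 was not called (limma adjusted p = 0.209). Its SE comes from a spread shared by the 4 organs, and with 0.5 reads added the FFPE minus frozen difference of this gene was 2.82 in brain and −2.24 in heart, from 0 to 5 reads, but −0.09 in kidney and 0.55 in liver. With log2(CPM + 1), which flattens such low values, the same step was 1.61 and was called (limma adjusted p = 0.00104), as it was with limma's voom, which weights by read count (1.65, 0.000317). The order of heart and brain was not settled (2.23 ± 0.95; limma adjusted p = 0.0738), and it was called under quantile normalization or without the FFPE library of either organ (limma adjusted p 0.00802 to 0.0344).

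Slc2a9 (Entrez 117591, chr5:38349273-38503143, reverse strand), which encodes GLUT9 and carries urate into hepatocytes, where uricase breaks it down in the mouse, was at 24.8 and 25.6 CPM in frozen and FFPE liver. Its levels were 6.61 and 5.89 CPM in kidney, 0.682 and 1.14 in heart and 0.476 and 0.335 in brain. The order was the same in both preparations and no organs overlapped. Liver exceeded kidney 4.03-fold (log2 difference 2.01 ± 0.41 SE; limma adjusted p = 0.00453), although without the FFPE kidney library the adjusted p was 0.0544 (limma, 1.88), and kidney exceeded heart 6.76-fold (2.76 ± 0.41; 0.000840). Heart over brain (1.13 ± 0.41; limma adjusted p = 0.0437) was the least stable step of this gene, lost under 11 of 17 alternatives and at −0.21 without the authors' scaling factors. Those losses include every fit that left out a library other than frozen brain or frozen heart, with the step at 0.69 to 1.13.

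Slc2a5 and Slc2a12 had their highest means in kidney and were called over the organs, and 12.5% of all genes tested were called and highest there. Slc2a5 (Entrez 56485, chr4:150119283-150144169, forward strand), the fructose transporter gene, reached 19.7 and 14.5 CPM in frozen and FFPE kidney. It was at 1.34 and 0.965 CPM in liver and 1.43 and 0.558 in brain, and at 1 read in each heart library. Kidney alone was above 2 CPM. Kidney exceeded liver 14.4-fold (log2 difference 3.84 ± 0.51 SE; limma adjusted p = 0.000441) and brain exceeded heart 7.14-fold (2.84 ± 0.51; 0.00154). Liver and brain did not differ beyond the spread (0.36 ± 0.51; limma adjusted p = 0.562), except under quantile normalization, where liver lay 1.99 above brain (0.0122).

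Slc2a12 (Entrez 353169, chr10:22645011-22704285, forward strand) was found at 4.16 and 4.62 CPM in frozen and FFPE kidney, 2.44 and 3.94 in heart and 3.01 and 2.12 in brain, and at 1 and 0 reads in liver. The 3 organs that held it lay close together, with heart and brain changing places between preparations, and liver lay far below them. In FFPE tissue kidney was at least 22.4-fold higher than liver when liver is set at the floor of 3 reads, and at least 17.9-fold by the lower limit of the exact counting interval. Brain, the lowest of the 3, exceeded liver by 5.18 ± 0.69 log2 units (limma adjusted p = 0.000193, with 0.5 reads added), while kidney, heart and brain did not differ from each other beyond the spread (limma adjusted p 0.364 to 0.735). Without the frozen heart library the mean of heart was the highest. Tbpl1, on the opposite strand, shares 407 of the 4237 exon bases of Slc2a12.

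Slc2a8 (Entrez 56017, chr2:32972990-32982083, reverse strand), the GLUT8 gene of intracellular membranes, was the most even of the members. Its level was 6.43 and 5.44 CPM in frozen and FFPE liver, 5.87 and 5.25 in brain, 3.70 and 3.94 in heart and 2.28 and 2.13 in kidney. Liver and brain overlapped, and kidney lay below all other libraries. Kidney was lower than liver by 1.42 ± 0.31 log2 units (2.67-fold; limma adjusted p = 0.00627) and lower than brain by 1.32 ± 0.31 (2.50-fold; 0.00614), and no neighbours in the order differed beyond the spread (limma adjusted p 0.0728 to 0.801). Kidney and liver were not called apart without scaling factors (0.98, limma adjusted p = 0.0875) or without frozen liver (1.33, 0.0620). Heart and brain were called apart without scaling factors (1.86, 0.00141), and heart and kidney under 3 alternatives (limma adjusted p 0.0248 to 0.0350). The call of Slc2a8 over the 4 organs was lost without the frozen (limma adjusted p = 0.0625) or the FFPE kidney library (0.0591), and without the authors' scaling factors brain took the highest place.

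Over the 6 pairs of organs and 8 members, 37 of 48 differences were called. Heart and brain differed in 5 of 8 members and in 58% of all genes, kidney and brain in 6 of 8 and 56.6%, and liver and brain in 6 of 8 and 67.1%. Kidney and heart differed in 6 of 8 members and in 40.9% of genes, liver and heart in 7 of 8 and 53.1%, and liver and kidney in 7 of 8 and 41.2%. The share of members was near that of all genes for heart against brain and for liver against brain, and with 8 members each share is coarse. In each pair the members' median absolute difference was above that of all genes. It ran from 1.98 (liver and kidney, all genes 0.74) to 4.37 log2 units (liver and heart, all genes 1.01). Of the 37 calls 30 held under all 17 alternatives.

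Set per kilobase of exon, so that genes can be compared within a library, the summed level of all 12 Slc2a genes ran from 23.3 CPM per kb in FFPE kidney to 39.4 in FFPE heart. The make-up of that sum differed between organs. In heart Slc2a4 alone held 88.4% of it in the frozen library (95% exact binomial interval 86.5 to 90.0) and 85.8% in the FFPE library (84.3 to 87.2), and the next gene, Slc2a1, held 3.46 and 3.35%. In liver Slc2a2 held 65.7% (63.1 to 68.2) and 74.8% (73.1 to 76.5), followed by Slc2a9 at 17.3 and 13.9% and Slc2a1 at 7.67 and 5.10%. The interval of Slc2a2 in frozen liver did not reach that in FFPE liver, and with 1 library of each kind the difference has no replicate check.

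Kidney and brain had no single dominant gene. In kidney Slc2a2 held 29.8 and 30.1% of the level per kb in frozen and FFPE tissue, Slc2a1 22.3 and 23.3%, Slc2a5 23.2 and 18.3% and Slc2a4 9.81 and 11.3%. In brain Slc2a1 held 24.5 and 29.2% and Slc2a3 22.4 and 23.4%, beside Slc2a13, which encodes a proton-coupled myo-inositol transporter and is not among the 8, at 31.5 and 29.6%. In FFPE brain the intervals of Slc2a1 (27.2 to 31.2) and Slc2a13 (28.1 to 31.2) overlapped. The order of these genes depended on the gene length used: by coding length Slc2a13 held 38.96 and 36.7%, Slc2a3 31.0 and 32.5% and Slc2a1 16.4 and 19.6% in frozen and FFPE brain, so that Slc2a3 lay above Slc2a1. By the longest transcript Slc2a13 (32.7%) lay above Slc2a1 (27.1%) in FFPE brain with intervals apart. Of the other Slc2a genes in the table Slc2a6, which encodes a lysosomal transporter, had 6.15 and 6.65 CPM in brain and at most 0.487 CPM elsewhere. Slc2a7 had 1 read in frozen kidney and none in any other library.

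**Figure D2:**
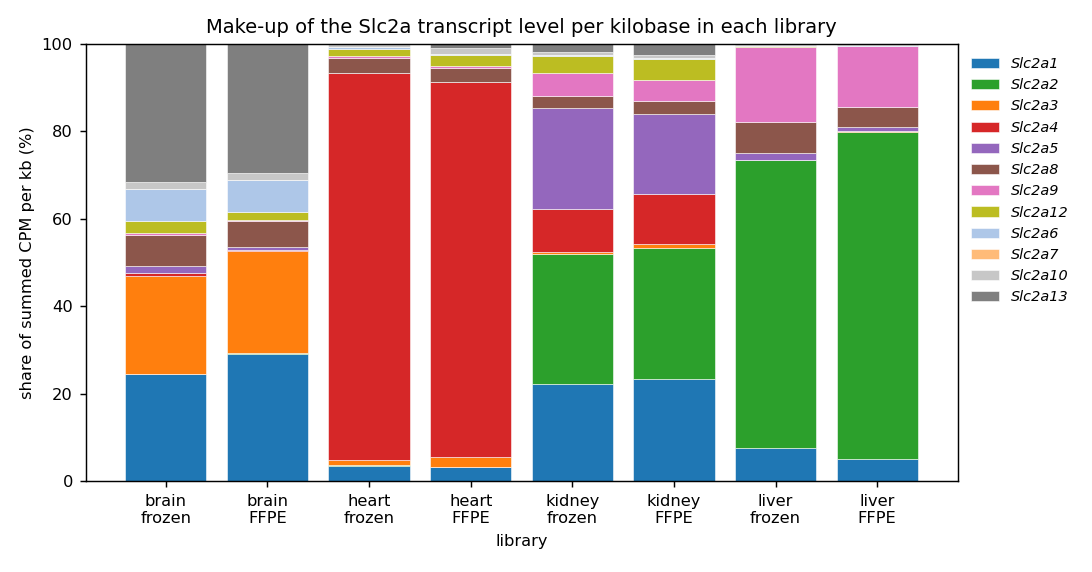
Share of the summed CPM per kilobase of exon (y axis, %) held by each of the 12 Slc2a genes in each library (x axis), stacked to 100%. Slc2a4 takes 88.4 and 85.8% in heart and Slc2a2 65.7 and 74.8% in liver, while brain and kidney are each divided among 3 main genes.

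Genes of other kinds followed the members closely over the 8 libraries. By Pearson r of log2 CPM among 14398 protein-coding genes, the 3 most alike for Slc2a4 were Lmcd1 (0.998), Id1 (0.997) and Ppp2r3a (0.994), and for Slc2a3 Fnbp1 (0.998), Dnm1 (0.995), the dynamin gene of synaptic vesicle recycling, and Lrrn2 (0.995). Slc2a9 went with Shmt1 (0.997), of one-carbon metabolism, and with Afmid (0.997) and Kyat1 (0.996) of tryptophan breakdown. Slc2a2 went with Golph3 (0.995), Mgam (0.993) and Net1 (0.992). Golph3 shows that r follows shape and not size, since it ran only from 28.0 to 59.0 CPM. For Slc2a5 the genes were Marveld3 (0.997), Mfsd9 (0.991) and Tns3 (0.990), for Slc2a12 Sh3bp4 (0.990), Tmem119 (0.986) and Galnt18 (0.984), for Slc2a1 Tmem169 (0.989), Zswim5 (0.988) and Ttc8 (0.988), and for Slc2a8 Tmcc1 (0.977), Slc25a33 (0.964) and Arrb2 (0.962). Among the members themselves Slc2a2 and Slc2a9 were most alike (r = 0.945), and Slc2a3 ran opposite to Slc2a9 (−0.940) and Slc2a2 (−0.927). These coefficients describe 8 points that share organ and scaling.

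The sodium-coupled transporter list of the Slc5a family, which holds glucose, fructose, inositol and lactate carriers, had 8 of 10 genes above the filter, and all 8 were called by the F test and highest in kidney. Slc5a2, the SGLT2 gene that recovers filtered glucose ahead of GLUT2, was at 170.1 and 111 CPM in frozen and FFPE kidney. Elsewhere it had no more than 1 read. Slc5a12 and Slc5a8, both lactate carriers, stood at 188 and 275 CPM and at 198 and 126 CPM in kidney, and Slc5a10, a sodium-coupled mannose and fructose carrier, at 64.8 and 44.4.

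Around Slc2a4, 22 of 25 genes of insulin signalling and GLUT4 traffic were called over the organs, 9 of them highest in heart, 5 in liver and 4 each in kidney and brain. Tbc1d4, the Rab GTPase-activating protein AS160 that holds GLUT4 vesicles back until Akt acts on it, was at 88.2 and 92.2 CPM in frozen and FFPE heart and at most 21.3 CPM in the other libraries. Rhoq (the GTPase TC10) stood at 72.6 and 63.9 CPM in heart against at most 24.7 elsewhere. Myo1c, a motor that helps tether those vesicles, was as high in kidney (82.4 and 72.5 CPM) as in heart (79.8 and 86.8), and Vamp2, a vesicle SNARE that neurons use in synapses, was highest in brain (166 and 168 CPM).

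All 12 genes of glucose phosphorylation and release were called, 7 of them highest in liver, 3 in brain and 2 in heart. Hexokinase 2 (Hk2) was at 238 and 213 CPM in frozen and FFPE heart, beside Slc2a4, and at no more than 3.72 CPM elsewhere. Glucose-6-phosphatase (G6pc, 459 and 427 CPM) and liver glycogen synthase (Gys2, 66.6 and 59.3) were highest in liver, beside Slc2a2. Kidney, which also held Slc2a2, had G6pc at 241 and 166 CPM.

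All 14 genes of fructose and urate handling were called, 7 highest in kidney, 6 in liver and 1 in heart. Ketohexokinase (Khk), the first enzyme of fructose use, was at 136 and 83.7 CPM in frozen and FFPE kidney and 119 and 99.6 in liver, whereas Slc2a5 was 14.4-fold lower in liver than in kidney. Urate oxidase (Uox) stood at 781 and 645 CPM in liver, beside Slc2a9, and at most 0.516 elsewhere. The urate carriers Slc22a12 (612 and 316 CPM) and Slc17a3 (258 and 180) and the scaffold gene Pdzk1 (446 and 337) were highest in kidney.

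Of 11 genes for arrestin-like proteins and other partners that move or remove transporters, 9 were called, with 3 each highest in heart and kidney, 2 in brain and 1 in liver. Txnip, which drives GLUT1 and GLUT4 from the surface, was at 6.19 and 8.66 CPM in frozen and FFPE brain, against 59.6 to 223 CPM in the other libraries. Stom (stomatin), a membrane partner of GLUT1, was at 47.9 and 46.7 CPM in heart and 33.5 and 34.7 in liver, and Pacsin3 at 39.6 and 49.4 and at 29.6 and 20.3. Of 18 transcriptional regulators known for these genes 17 were called, 11 highest in liver, 4 in heart and 1 each in brain and kidney. Hnf4a, a nuclear receptor of liver and tubule, was at 442 and 507 CPM in liver and 401 and 334 in kidney, the organs that held Slc2a2 and Slc2a9, and at most 0.317 CPM in brain and heart. Foxa3 (37.0 and 17.2 CPM) was held by liver alone above 0.1 CPM. These lists were chosen with earlier results of these data known, so their counts are descriptions beside the 80.9% of all genes called.

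**Figure D3:**
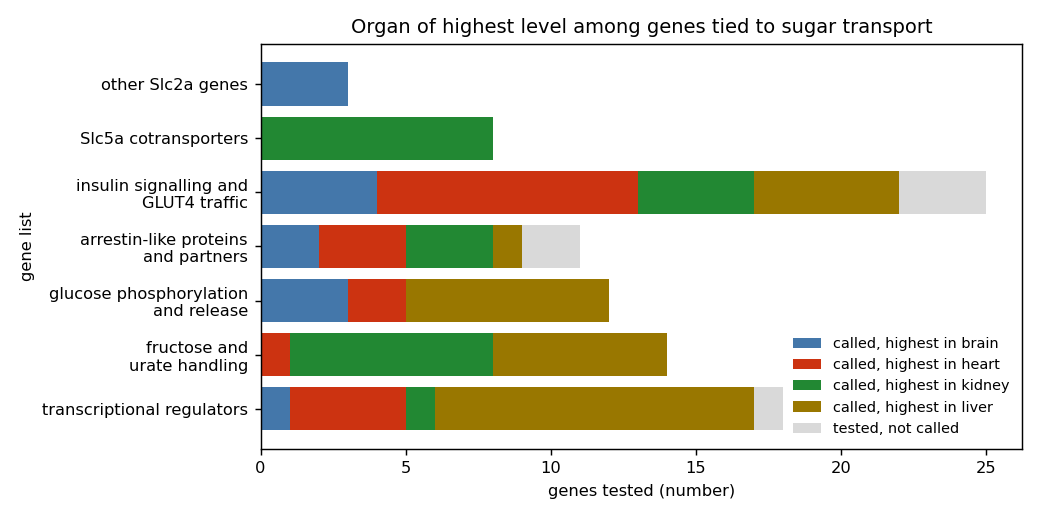
Number of genes tested in each list tied to sugar transport (x axis), divided by the organ with the highest mean among genes called over the organs, with tested genes that were not called in grey. The sodium-coupled Slc5a list lies wholly in kidney (8 genes), and liver holds 11 of 18 transcriptional regulators and 7 of 12 genes of glucose phosphorylation and release.

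Between FFPE and frozen tissue 0 of the 8 members were called by limma, with 1 at an unadjusted p under 0.05 and 0 by voom. Of all genes tested 1.2% were called higher in FFPE and 2.18% lower. The members' median difference was 0.04 log2 units, beside 0.07 over all genes, and 5 of 8 were positive. Slc2a1 differed by 0.07 ± 0.16 SE, Slc2a9 by 0.03 ± 0.29, Slc2a4 by 0.04 ± 0.31 and Slc2a8 by −0.10 ± 0.22 (limma adjusted p 0.816 to 0.967). The wide errors of Slc2a2 (0.26 ± 0.67) and Slc2a12 (−0.43 ± 0.49) come with organs in which they had 0 to 5 reads, in brain and heart for Slc2a2 and in liver for Slc2a12.

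Slc2a3 had the difference nearest to a call, 0.73 ± 0.30 (limma adjusted p = 0.215), and was higher in FFPE in 4 of 4 organs. The ratio of FFPE to frozen was 1.13 in brain (95% exact interval 1.03 to 1.24, counting error only), 2.10 in heart (1.37 to 3.31), 2.53 in kidney (1.26 to 5.52) and 1.44 in liver (0.206 to 15.9, from 4 and 2 reads). Over the alternatives it was called only without the authors' scaling factors (1.20, limma adjusted p = 0.0381). That scale adds 0.47 to the difference of every member. On it the median levels of the libraries were on average 0.46 log2 units higher in FFPE than in frozen tissue. The 6 neuron markers moved the same way: they summed to 10.7 and 15.5 CPM in frozen and FFPE heart, with none at 0, and to 6.20 and 14.3 CPM in kidney, with Snap25 at 0 in the frozen library. In brain they summed to 1299 and 1604 CPM. FFPE heart also held 16 reads of Gabra6 and 2 of Pcp2, and frozen heart 0 of both. The part of these cells in the Slc2a3 difference was not tested.

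Slc2a5 was lower in FFPE in 4 of 4 organs, by −0.65 ± 0.36, and was not called (limma adjusted p = 0.341). In brain it went from 36 to 10 reads, a ratio of 0.391 (0.173 to 0.805, counting error only), and in kidney the ratio was 0.735 (0.629 to 0.859). Reads were equal in both preparations in liver (14 and 14) and heart (1 and 1), so the sign there comes from the scaled library sizes. The liver ratio was 0.718 (0.317 to 1.62). The 6 microglia markers, which include Cx3cr1 and P2ry12, summed to 81.3 CPM in frozen brain and 54.7 in FFPE brain. They are not particular to brain: 3 were highest in brain and 3 in kidney. In frozen and FFPE kidney they summed to 125.8 and 98.7 CPM. The 5 markers of the last proximal tubule segment (S3) summed to 1212 CPM in frozen kidney and 557 in FFPE kidney, with none of either list at 0 there. The fall was not particular to S3. Markers of segments S1 and S2 summed to 940 and 714 CPM in frozen and FFPE kidney. The proximal tubule list gave 10758 and 7363, and the distal nephron list 2527 and 2080. Slc2a5 is known from microglia and from S3 cells, and their part in its difference was not tested.

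Slc2a1 was 1.29 times as high in FFPE brain as in frozen brain (1.14 to 1.45, counting error only) and between 0.854 and 1.13 times in the other organs. The 6 markers of barrier endothelium summed to 85.0 CPM in frozen brain and 96.7 in FFPE brain, with none at 0. Only 2 of the 6 were highest in brain, and the list summed to 179 CPM in FFPE liver. The 6 markers of endothelium in general summed to 33.9 and 35.9 CPM in frozen and FFPE brain. Other lists moved in brain too. Choroid plexus markers summed to 27.8 and 83.4 CPM in frozen and FFPE brain. Of the 5 of them tested, 3 were highest in kidney and 2 in liver. That list shares Ttr with the hepatocyte list, which summed to 12.8 and 63.7 CPM in the same brain libraries. Astrocyte markers summed to 1467 and 1856 CPM, while microglia markers fell from 81.3 to 54.7. The part of any of these cells in the Slc2a1 difference was not tested. Slc2a2 was 1.46 times as high in FFPE liver as in frozen liver (1.36 to 1.57) and 0.939 times in kidney (0.851 to 1.04), while the hepatocyte markers were lower in FFPE liver. With 1 library of each kind per organ these ratios have no replicate check.

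**Figure D4:**
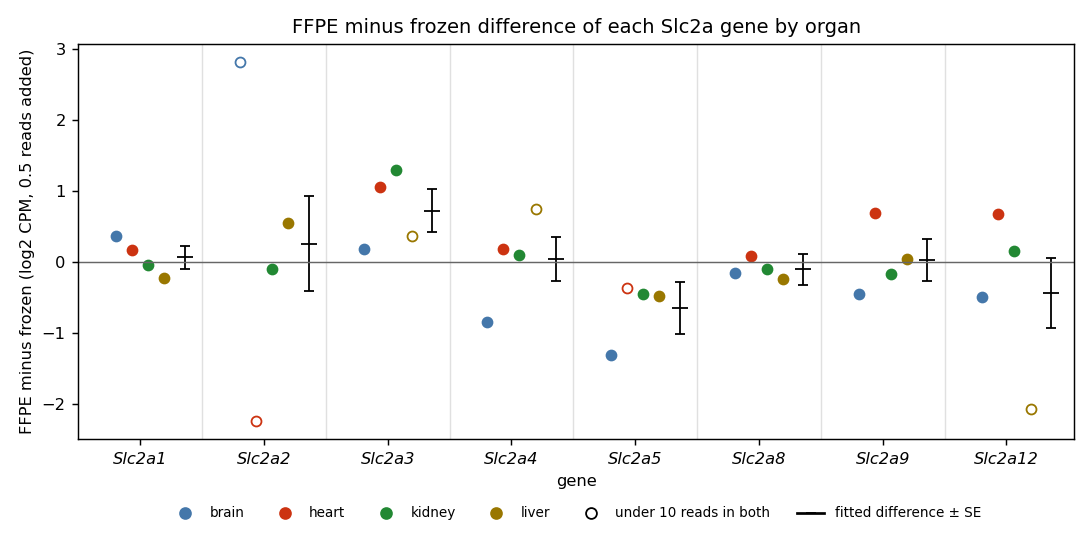
FFPE minus frozen difference of each Slc2a member (y axis, log2 CPM with 0.5 reads added), with 1 point per organ, open where both libraries had under 10 reads, and the fitted difference over the 4 organs ± SE as a black bar. Slc2a3 lies above 0 in 4 of 4 organs and Slc2a5 below it in 4 of 4, and the extreme points of Slc2a2 (2.82 and −2.24) are open. The heart and liver points of Slc2a5 come from equal reads in both libraries.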

How the data were processed

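Total RNA was taken with Trizol and sheared with PIXUL (FFPE tissue was freed of paraffin first), as the labels' protocols state. Per the submitters' processing notes, HISAT2, featureCounts and limma (no versions) were run on genome mm10. Read filters, strand setting and scaling method: not given in the sources used here. Deposited by the authors are log2 values for 27179 genes. Worked out from the values, they are log2 CPM with 0.5 added to each count and scaling factors of 0.500 to 1.76, and 100% of values in each library gave whole reads (within 1e-06). CPM here is recovered reads over that effective library size. Exact intervals cover counting error only, since without molecular identifiers reads may be copies of 1 molecule.

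The 8 members and all lists were chosen with earlier results of these data known. A model with organ and preservation terms was fitted with limma 3.58.1 (R 4.3.3, mean-variance trend, 3 residual degrees of freedom, prior 5.35) to 15819 genes above 1 CPM in at least 2 libraries. P-values were adjusted by Benjamini-Hochberg over all of these genes (within each pair of organs for pairs), and a call is an adjusted p under 0.05. Outside the members, text names up to 4 called genes per list with the largest organ difference, genes set beside a member, and the 3 most similar genes of each member. Exon lengths and coordinates are from GENCODE M21 (GRCm38), matched by symbol. Alternatives were other filters, scalings, offsets and variance models, and leaving out each library. Some list genes that the naming rule takes, and 1 coding stretch, are not reported here.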

Additional observations from a re-analysis of the deposited data

How the results depend on the processing

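All 8 members stayed called over the organs under the 9 alternatives of filter, scaling, offset and model, and 7 to 8 when a library was left out, Slc2a8 being lost without either kidney library. Where a library is left out, the lone library of that organ is assumed to vary like the others. Organ pair calls numbered 35 to 38 under the same 9 alternatives and 33 to 37 with a library left out, beside 37. The highest organ of each member was the same under all 17 alternatives, except for Slc2a8 without scaling factors and Slc2a12 without frozen heart. Of the pair calls 7 were lost and of the uncalled pairs 6 gained under at least 1 alternative. The FFPE call count was 0 with any library left out and 0 to 1 otherwise, the 1 being Slc2a3 on total reads without scaling factors, a scale that adds 0.47 to every member's difference by construction. Uncalled FFPE differences of the 8 members changed sign 19 times over the alternatives that keep a preservation term, 12 of them with a library left out. The leading gene of each library kept its place for other gene lengths, with Slc2a13 at 38.96 and 36.7% of brain, Slc2a4 at 82.8% of FFPE heart, and Slc2a2 at 38.98 and 38.9% of kidney and 71.9 and 79.5% of liver, all by coding length, while Slc2a1 and Slc2a3 changed places in brain. The organ term already sets FFPE against frozen tissue within each organ. No paired analysis was possible because the labels give no replicate numbers to pair by beyond the organ. Depth limits the low levels: for the 10 reads of Slc2a5 in FFPE brain the 95% exact interval ran from 0.268 to 1.03 CPM around 0.558.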

Other observations

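The remaining Slc2a genes in the table gave values outside the comparisons above. Slc2a13, the inositol transporter gene, was at 67.7 and 68.8 CPM in frozen and FFPE brain and at 3.98 and 5.08 in kidney, but had 1 read in frozen heart and 42 in FFPE heart (0.0975 and 3.18 CPM). Its FFPE minus frozen difference was 1.46 ± 0.66 SE and was not called (limma adjusted p = 0.245). The cerebellar neuron genes Gabra6 and Pcp2 had 16 and 2 reads in FFPE heart and 0 in frozen heart, and their part in the Slc2a13 reads was not tested. Slc2a10, a transporter gene of intracellular membranes, was at 1.43 and 1.45 CPM in brain, 0.780 and 1.97 in heart, 0.527 and 0.453 in kidney and 0.192 and 0.0689 in liver. It was called over the organs (limma adjusted p = 0.00930), though brain and heart overlapped. Of the 91 tested genes on the lists of pathways around these transporters, 2 were called by limma, both higher in FFPE tissue, beside 1.2% of all genes called higher and 2.18% called lower. The 2 were Arrdc2, an arrestin-like gene (1.33 ± 0.22, higher in 4 of 4 organs; limma adjusted p = 0.0252), and Xdh, the xanthine dehydrogenase that makes urate (0.84 ± 0.11, higher in 4 of 4 organs; 0.0129).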
